A study of Mus musculus with 6 samples.

Results

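The genes described are 10 AMPA and NMDA receptor subunit genes that were chosen by name: Gria1, Gria2 and Gria4 for AMPA receptors, and Grin1, Grin2a, Grin2b, Grin2c, Grin2d, Grin3a and Grin3b for NMDA receptors. The AMPA subunit gene Gria3 was not among the 10, so the AMPA values below leave it out. Every methylated peak whose nearest annotated gene was one of the 10 was taken, whatever its class or distance. Of 13142 genes with a peak in at least 1 library, 9 were of these 10, and their peaks merged to 44 of the 48853 regions of the series. Grin2d had no peak in any library.

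The data are 6 peak lists from MeDIP-seq, which sequences the fragments of genomic DNA that an antibody to 5-methylcytosine retains. Each list is from the hippocampus of 1 male C57BL/6 mouse, taken on postnatal day 21. The 3 ethanol pups had been injected under the skin with 2.5 g/kg ethanol in 0.15 M NaCl, 2 times a day on postnatal days 4 and 7, and the 3 saline pups with 0.15 M saline on the same schedule. The pups are described as matched littermates, but the labels do not say which of them shared a litter. Whole hippocampus holds many cell types, so a methylated sequence in more cells and a more methylated sequence per cell cannot be told apart.

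AMPA and NMDA receptors are ion channels opened by glutamate, the main excitatory transmitter of the brain. AMPA receptors, built from GluA subunits, carry most fast excitatory current. NMDA receptors need the GluN1 subunit, encoded by Grin1, together with GluN2 or GluN3 subunits. Those built from GluN1 and GluN2 open only when glutamate and depolarisation coincide, and let in calcium that drives synaptic plasticity. In the rodent hippocampus the GluN2B subunit predominates early and GluN2A gains after birth, and ethanol is known to inhibit NMDA receptors. Methylation of cytosine in vertebrate DNA falls mostly on CpG dinucleotides, and CpG-rich promoters of active genes are usually free of it.

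The sequences under the peaks fell into unlike kinds, and 5 of them are shown because the results below turn on them. Each is the stretch of 200 bases around the median summit, from the plus strand of mm10 (RefSeq's GRCm38 sequence), 5′ to 3′, with CpG in capitals.
Grin2b, coding exon, chr6:136044107-136044306: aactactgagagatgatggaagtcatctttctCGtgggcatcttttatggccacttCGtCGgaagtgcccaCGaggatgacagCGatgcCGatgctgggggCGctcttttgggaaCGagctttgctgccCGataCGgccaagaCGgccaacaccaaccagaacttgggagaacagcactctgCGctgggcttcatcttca
Grin2c, downstream, in a coding exon of Tmem104, chr11:115243578-115243777: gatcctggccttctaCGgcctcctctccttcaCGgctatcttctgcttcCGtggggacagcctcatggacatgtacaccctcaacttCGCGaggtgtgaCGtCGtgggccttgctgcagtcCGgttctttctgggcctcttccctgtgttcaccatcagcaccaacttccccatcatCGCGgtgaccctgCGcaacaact
Grin2a, upstream, ethanol libraries only, chr16:10072178-10072377: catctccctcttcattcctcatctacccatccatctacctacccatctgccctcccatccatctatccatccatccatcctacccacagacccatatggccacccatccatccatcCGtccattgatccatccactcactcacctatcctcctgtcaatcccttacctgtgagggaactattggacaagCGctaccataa
Grin3a, upstream, ethanol libraries only, chr4:50056086-50056285: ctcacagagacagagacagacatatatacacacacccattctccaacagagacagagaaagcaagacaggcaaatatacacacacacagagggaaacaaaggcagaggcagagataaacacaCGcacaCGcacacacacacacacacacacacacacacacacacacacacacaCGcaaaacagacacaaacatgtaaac
Grin1, intron near the start, chr2:25317284-25317483: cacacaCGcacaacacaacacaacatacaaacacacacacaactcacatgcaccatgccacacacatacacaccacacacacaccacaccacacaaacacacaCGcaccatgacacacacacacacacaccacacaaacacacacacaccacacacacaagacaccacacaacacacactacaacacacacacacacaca
The Grin2b and Grin2c windows held 12 and 11 CpG and lay in regions of which only 9.34% and 2.23% was soft-masked, the mark of repeats in the reference. The Grin2a window held 2 CpG in a run of repeated catc and related words. The Grin3a and Grin1 windows held 3 and 2 CpG within repeats of ca.

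Methylated regions of these genes lay mostly outside them and far from their starts. Of the 44 regions, 29 were classed intergenic, 14 gene body and 1 promoter, that is 65.9%, 31.8% and 2.27%, against 72.0%, 24.9% and 2.86% of all regions of the series. The summits lay a median of 186 kb from the annotated transcription start site (TSS), against 55.9 kb over all regions. In GENCODE, the summits of 23 regions lay in no gene, those of 11 in an intron and those of 4 in a coding exon of the annotated receptor gene. The other 6 lay in another gene, 4 of them coding and 2 pseudogenes. The annotation by nearest coding start thus placed 29 of the 44 regions outside the gene whose name they carry.

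**Figure D1:**
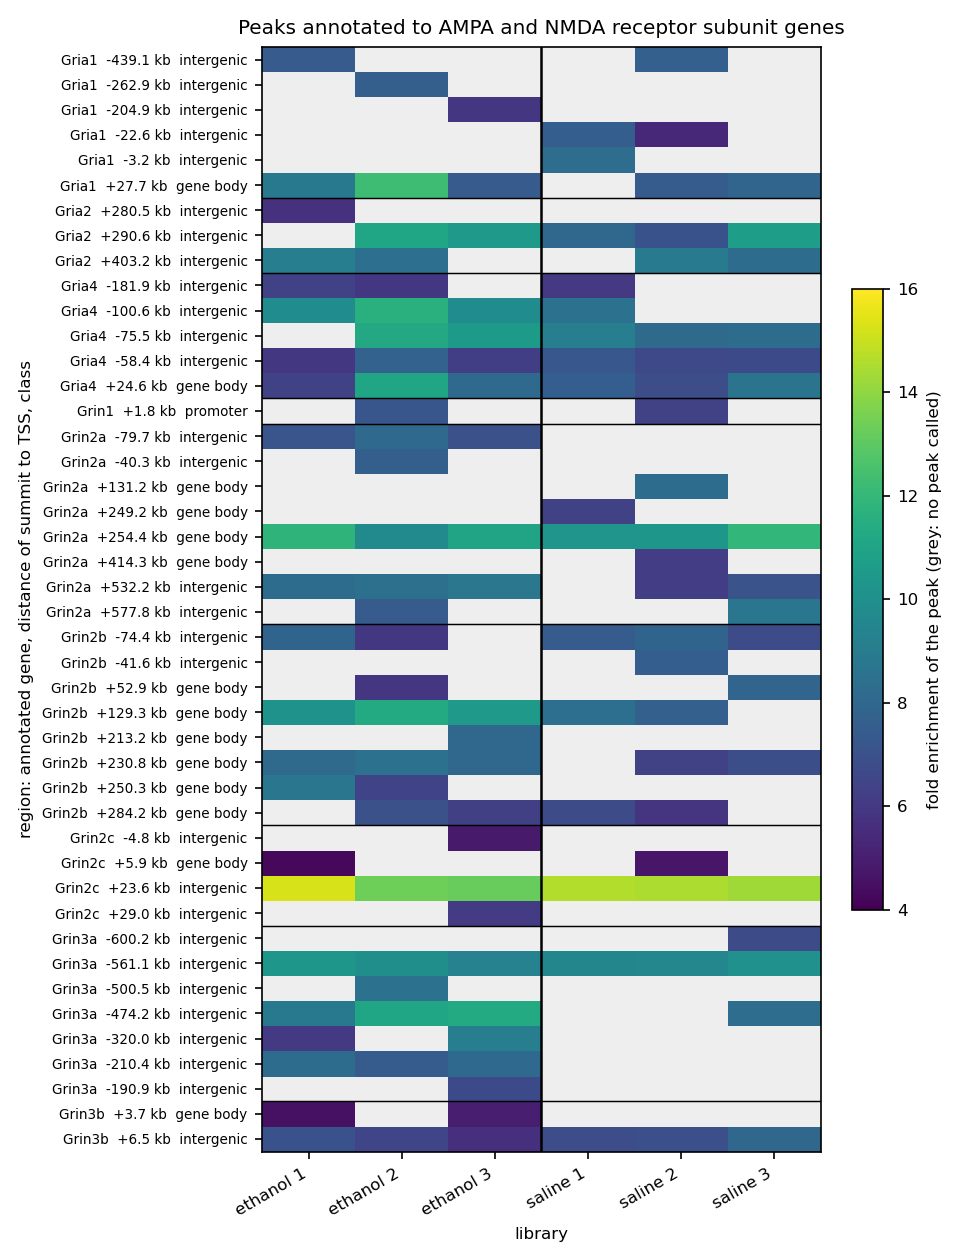
Fold enrichment of each peak (colour; grey where no peak was called) in the 44 regions annotated to receptor subunit genes, by library, with the distance of the summit to the TSS (negative is upstream) and the class of the peak. Only 6 regions are filled in all 6 libraries, the Grin2c region at 23.6 kb has the brightest row, and the 2 rows filled in the 3 ethanol columns alone belong to Grin2a and Grin3a.

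No library had a summit within 500 bp of the annotated TSS of any of the 10 genes. Over all genes with a peak 3.10% had one, so a count of 0 in 10 is not apart from the background. The promoter class of the lists reaches further, and takes in the Grin1 peak. The nearest summits were 1756 bp from the TSS for Grin1, 3189 bp for Gria1, 3745 bp for Grin3b and 4806 bp for Grin2c, while the nearest Gria2 summit was 280514 bp away. RefSeq promoter sequences (250 bases before to 50 after the start, GRCm38.p6) were matched for 6 of the 10 genes, Gria2, Gria4, Grin1, Grin2c, Grin2d and Grin3b. They held 26, 17, 33, 22, 12 and 3 CpG, with a median of 19.5, against a median of 7 over all promoters of the table and 8 over those of the 407 genes with a peak within 500 bp. Of the 6, Grin3b alone had fewer CpG than the median promoter. The Grin2d sequence (chromosome 7, 45866632 to 45866931) lay inside the GENCODE gene, which starts at 45878378 on the minus strand. The Grin1 promoter is shown as the richest, with CpG in capitals, on the minus strand.
Grin1 promoter, chr2:25319138-25319437: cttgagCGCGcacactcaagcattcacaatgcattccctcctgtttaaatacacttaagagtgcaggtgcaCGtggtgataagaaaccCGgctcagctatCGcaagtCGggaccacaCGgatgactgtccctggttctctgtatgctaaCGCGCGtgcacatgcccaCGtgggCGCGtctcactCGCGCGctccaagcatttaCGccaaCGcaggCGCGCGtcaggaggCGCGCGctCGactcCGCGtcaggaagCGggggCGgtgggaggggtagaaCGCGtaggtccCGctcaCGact
A missing peak there shows that the sequence did not pass the peak threshold, and the lists used here give no value below it.

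The 3 AMPA receptor subunit genes chosen had 14 regions. Gria1, which encodes GluA1, the subunit most tied to plasticity, had 6 regions, of which 5 lay upstream in no gene and 1 in an intron. The intron region, 27.7 kb from the TSS, had a peak in 5 of 6 libraries. Its fold enrichment, the summit over the local background as the authors' peak caller gave it, was 8.84, 12.3 and 7.46 in ethanol libraries 1, 2 and 3, and 7.51 and 7.89 in saline libraries 2 and 3. No peak was called there in saline library 1. This region held no CpG over its 706 bp, as did 573 of all 48853 regions (1.17%). The upstream region at 22.6 kb had a peak in saline libraries 1 and 2 alone (fold 7.57 and 5.36), and the other 4 upstream regions were held by 1 or 2 libraries.

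Gria2, which encodes the subunit that keeps AMPA receptors largely impermeable to calcium, had no region inside the gene, over 121 kb. Its 3 regions lay 281 to 403 kb downstream of the TSS, past the end of the gene. The region at 290.6 kb had a peak in 2 ethanol and 3 saline libraries (fold 11.1 and 10.4 in ethanol libraries 2 and 3, and 8.03, 7.03 and 10.7 in saline libraries 1, 2 and 3). The region at 403.2 kb, in the pseudogene Gm6706, had a peak in 2 libraries of each treatment.

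Gria4, which encodes GluA4, a subunit of early postnatal and inhibitory neurons, had the most peaks of the 3 AMPA genes and the only AMPA regions held by all 6 libraries. The first of these, in an intron 24.6 kb from the TSS (chromosome 9, 4771276 to 4772123), had a summit pileup, the number of tags stacked at the summit, of 19, 44 and 26 in ethanol libraries 1, 2 and 3, against 23, 24 and 25 in saline libraries 1, 2 and 3. The ethanol values lay on both sides of the saline ones. The other, 58.4 kb upstream (chromosome 9, 4854148 to 4855120), had 76, 121 and 92 in ethanol libraries and 72, 77 and 85 in saline libraries, and the groups overlapped. Both were almost wholly soft-masked, at 99.3% and 98.7% of their bases, and CpG-rich, at 5.07 and 5.96 per 100 bp. A further region 100.6 kb upstream had a peak in the 3 ethanol libraries (fold 9.82, 11.6 and 9.84) and in saline library 1 (fold 8.47).

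Grin1, which encodes the subunit every NMDA receptor needs, had a single region, and it was the only one of the 44 classed promoter. The summit lay 1756 to 1802 bp downstream of the TSS, in an intron (chromosome 2, 25317000 to 25317584; NM_008169). A peak was called in ethanol library 2 and saline library 2, with a fold of 7.20 and 6.32 and a pileup of 23 and 29. Those peaks ranked low, at percentiles 12.5 and 13.1 of -log10 q within their lists. The region held 0.342 CpG per 100 bp and was 81.7% soft-masked, and its summit lies in the ca repeat printed above.

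Grin2a and Grin2b had 8 regions each, the most of any of these genes. They are long, at 428 and 460 kb, and encode the main GluN2 subunits of the forebrain. Grin2b had 6 of its regions inside the gene, which is 1.30 per 100 kb of gene length, and Grin2a had 4, which is 0.935 per 100 kb. The short genes Grin1, Grin2c and Grin3b had the highest densities, at 3.57, 5.53 and 15.4 per 100 kb, from 1 region inside each. Gria1 and Gria4 had 0.314 and 0.264 per 100 kb, Gria2, Grin2d and Grin3a had none inside the gene, and all 10 genes together had 0.754. These densities count regions of any class with a summit in the GENCODE span of the gene. By another measure, all regions classed gene body, over the summed length of all protein-coding genes of RefSeq, came to 1.17 per 100 kb.

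A coding exon of Grin2b carried methylated peaks in both treatments. The region 129.3 kb from the TSS (chromosome 6, 136043861 to 136044599) lay on exon 3 of 14 in the transcript ENSMUST00000053880. Its fold was 10.2, 11.3 and 10.4 in ethanol libraries 1, 2 and 3, and 8.39 and 7.67 in saline libraries 1 and 2, with no peak in saline library 3. Its summit pileup was 55, 63 and 57 in the ethanol libraries and 42 and 42 in the 2 saline libraries. Pileup is not scaled to depth, and the difference in this region was not tested. With 4.74 CpG per 100 bp it was the richest Grin2b region in CpG. A second exon, 4 of 14, had a peak in ethanol libraries 1 and 2 alone (chromosome 6, 135923029 to 135923555; fold 8.70 and 6.42). The intron region at 230.8 kb had a peak in 5 libraries, all but saline library 1, although it held only 0.182 CpG per 100 bp.

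Grin2a had a region held by all 6 libraries in an intron 254.4 kb from the TSS (chromosome 16, 9737839 to 9738503). Its pileup was 76, 64 and 67 in ethanol libraries and 51, 69 and 78 in saline libraries. All 3 ethanol values lay within the range of the saline values. The final exon of Grin2a had a peak in saline library 2 alone (chromosome 16, 9578062 to 9578541; fold 6.16), at percentile 4.85 of its list. A region 532.2 kb from the TSS, past the end of the gene, had a peak in every library but saline library 1.

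Upstream of Grin2a, a region 79.7 kb from the TSS was called in ethanol libraries 1, 2 and 3 and in none of the saline ones (chromosome 16, 10071998 to 10072531). Its fold was 7.18, 8.09 and 6.96, its summit pileup 31, 30 and 24 and its -log10 q 17.0, 18.5 and 13.5 in ethanol libraries 1, 2 and 3. These values placed it at percentiles 26.4, 35.0 and 13.3 of -log10 q in its 3 lists. GENCODE has no gene there, and the region held 1.5 CpG per 100 bp.

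Grin2c, whose subunit is expressed mainly in the cerebellum, carried the strongest region of all 44, but that region lies in another gene. Its summit was 23.6 kb from the Grin2c TSS, past the end of the 18.1 kb gene, on the final coding exon of Tmem104, a transmembrane protein gene on the opposite strand (chromosome 11, 115243276 to 115244127; exon 10 of 10 in ENSMUST00000061450). Its fold was 15.3, 13.3 and 13.2 in ethanol libraries and 14.6, 14.5 and 14.3 in saline libraries, and its -log10 q ranked at percentiles 97.7 to 99.2 of the lists. Summit pileup was 212, 159 and 136 in ethanol libraries, against 147, 224 and 176 in saline libraries, with overlapping groups. Inside Grin2c the only region was in an intron, with a peak in ethanol library 1 and saline library 2. Grin2d, over its 46.5 kb, had no peak at any distance.

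The GluN3 genes, which encode subunits that bind glycine, were unlike each other in position. Grin3b is a short gene of 6.48 kb. It had a region on coding exon 3 of 9 in ethanol libraries 1 and 3 alone (chromosome 10, 79974273 to 79974776; fold 4.55 and 5.0). A second region at its end, held by all 6 libraries (chromosome 10, 79976891 to 79977677), was the richest of the 44 in CpG, at 8.51 per 100 bp, and its summit fell in an untranslated exon of Tmem259, which runs on the opposite strand. Its pileup was 104, 109 and 80 in ethanol libraries and 84, 107 and 117 in saline libraries, which overlapped.

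Grin3a had no region inside the gene. All 7 regions annotated to it lay 191 to 600 kb upstream, in no gene. The region at 561.1 kb, wholly soft-masked (chromosome 4, 50406426 to 50407373), had a peak in all 6 libraries with pileups of 102, 106 and 113 in ethanol libraries and 80, 98 and 101 in saline libraries. Each ethanol value there was above each saline value before the libraries were centred. At 474.2 kb a region had a peak in the 3 ethanol libraries (fold 8.85, 11.1 and 11.3) and in saline library 3 (fold 8.27). At 210.4 kb a region was called in each of the 3 ethanol libraries and in none of the saline ones (chromosome 4, 50055912 to 50056495). Its fold was 8.22, 7.49 and 8.09 and its summit pileup 25, 32 and 26 in ethanol libraries 1, 2 and 3, at percentiles 22.6, 33.7 and 26.2 of their lists. It held 0.856 CpG per 100 bp, and its window is the ca repeat shown above.

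Ethanol libraries held more peaks of these genes than saline libraries, as they held more peaks altogether. There were 23, 27 and 24 peaks in ethanol libraries 1, 2 and 3, against 16, 22 and 17 in saline libraries 1, 2 and 3. The groups did not overlap, and the means were 24.7 ± 2.08 for ethanol and 18.3 ± 3.21 for saline (SD, n = 3 each). The two-sided exact permutation p was 0.1, which is as low as 3 against 3 can go. The whole lists held 23141, 34904 and 28386 peaks in ethanol libraries and 18922, 22703 and 20776 in saline libraries, with the same lack of overlap. Per 10000 peaks of the list, the receptor genes averaged 8.71 ± 1.12 in ethanol and 8.78 ± 0.803 in saline libraries, a difference with an exact permutation p of 0.9. The number of these genes with a peak was 8, 9 and 8 in each treatment (exact permutation p = 1). Without ethanol library 2 the share per 10000 peaks was 0.421 higher in ethanol (exact permutation p = 0.6). With a library left out that test could not have passed 0.05, whatever the values.

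**Figure D2:**
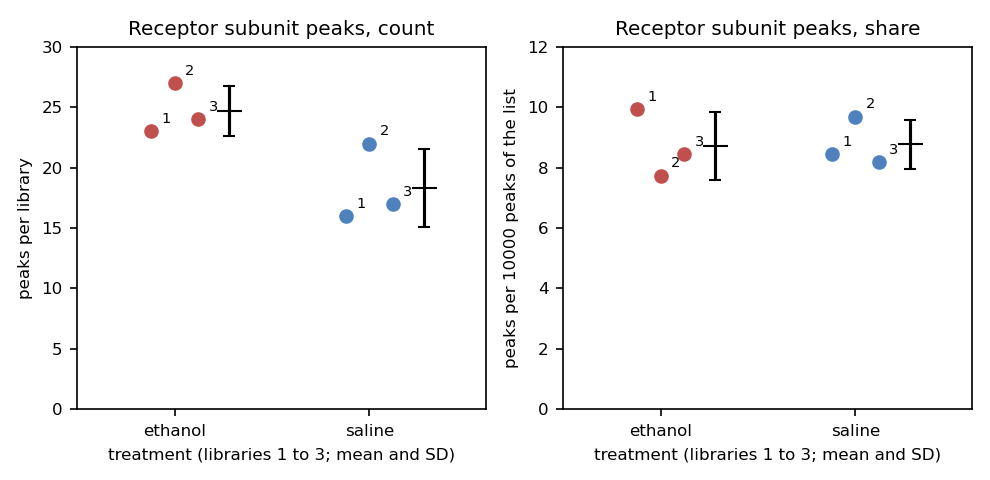
Peaks annotated to the 10 receptor subunit genes in each library, as a count (left) and per 10000 peaks of the same list (right), with the mean and SD beside the points. The 3 ethanol counts of 23 to 27 sit above the saline counts of 16 to 22, while the shares of the 2 treatments overlap.

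By receptor type, the counts of the treatments overlapped for AMPA subunit genes and not for NMDA subunit genes. The AMPA genes had 8, 9 and 7 peaks in ethanol libraries and 8, 8 and 6 in saline libraries (means 8 ± 1 in ethanol and 7.33 ± 1.15 in saline; exact permutation p = 0.7). The NMDA genes had 15, 18 and 17 in ethanol libraries and 8, 14 and 11 in saline libraries (means 16.7 ± 1.53 in ethanol and 11 ± 3 in saline; exact permutation p = 0.1). Without Grin3a the NMDA genes had 12.3 ± 1.53 peaks with ethanol and 9.33 ± 3.21 with saline, and the exact permutation p was 0.3. Per 10000 peaks the NMDA genes averaged 5.88 ± 0.670 in ethanol and 5.23 ± 0.971 in saline libraries, with an exact permutation p of 0.5. The AMPA genes averaged 2.83 ± 0.543 with ethanol and 3.55 ± 0.670 with saline on that scale, lower in ethanol libraries (exact permutation p = 0.2). Without Grin3a the NMDA share was also lower with ethanol, at 4.33 ± 0.382, against 4.43 ± 1.13 with saline (exact permutation p = 1). Whether the AMPA and NMDA differences differ from each other was not tested.

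Among single genes, Grin3a was the one whose counts did not overlap between the treatments. It had 4, 4 and 5 peaks in ethanol libraries and 1, 1 and 3 in saline libraries, with means of 4.33 ± 0.577 for ethanol and 1.67 ± 1.15 for saline (SD, n = 3 each). Its exact permutation p was 0.1, and 1 after Benjamini-Hochberg adjustment over all 13142 genes. Since 0.1 is the smallest p this test can give, no gene could have passed 0.05, whatever its counts. Of all genes with a peak, 5.12% had more peaks in every ethanol library than in any saline library and 0.0989% had the reverse. Among genes with 8 or more peaks in all, a floor that 8 of the 9 genes here met, the shares were 8.75% and 0.0712%. A count of 1 gene among 9 is too small to set apart from that background. Without ethanol library 2, saline library 1 or saline library 2 the count was 2, under a rule that then covered the remaining libraries alone and was easier to meet. The share of all genes under that looser rule is not given here. Per 10000 peaks Grin3a had 1.73, 1.15 and 1.76 in ethanol libraries and 0.528, 0.440 and 1.44 in saline libraries, and the groups overlapped (exact permutation p = 0.2). With lists of equal length it had 3, 2 and 3 peaks in ethanol libraries and 1, 1 and 3 in saline libraries.

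**Figure D3:**
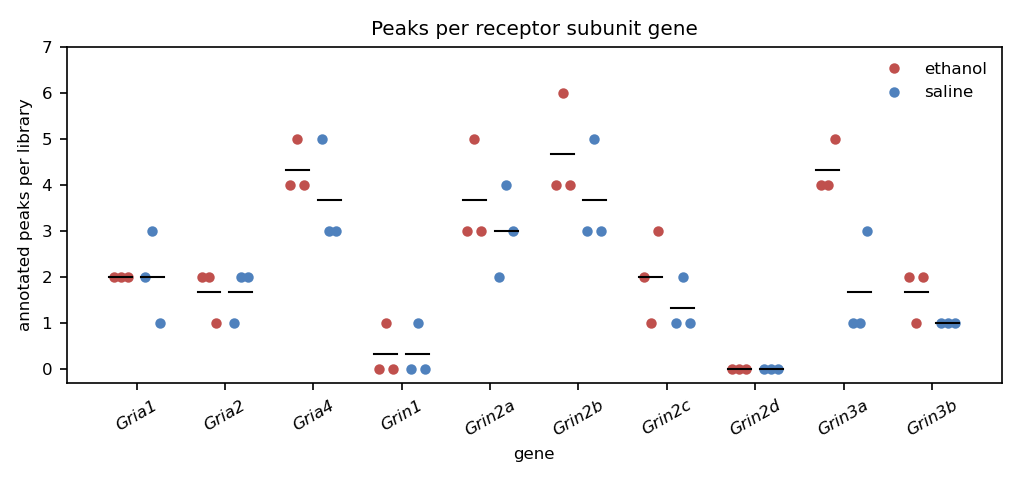
Peaks annotated to each receptor subunit gene, 1 point per library, with the mean of each treatment as a bar. The ethanol and saline points of Grin3a, 4 to 5 and 1 to 3, do not overlap, those of the other 8 genes with peaks do, and Grin2d is at 0 throughout.

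The other genes differed less. Grin2b had 4, 6 and 4 peaks in ethanol and 3, 5 and 3 in saline libraries, Grin2a 3, 5 and 3 against 2, 4 and 3. In both genes the number 2 library of each treatment was highest. Gria4 had 4, 5 and 4 in ethanol libraries and 5, 3 and 3 in saline libraries. Gria1 had 2 in each ethanol library, against 2, 3 and 1 in saline libraries, and Gria2 averaged 1.67 in both treatments. The exact permutation p of these genes, and of Grin1, Grin2c and Grin3b, lay between 0.4 and 1.

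Region by region, 4.55% of the receptor gene regions, 2 of 44, were called in every ethanol library and no saline one, the Grin2a region at 79.7 kb and the Grin3a region at 210.4 kb. No region was called in every saline library and no ethanol one. Over all regions of the series the shares were 1.49% and 0.108%, and a count of 2 regions is too small to set apart from them. Without ethanol library 2 the count was 4, but the rule then covered the remaining libraries alone and was easier to meet. The share of all regions under that looser rule is not given here. With 3 libraries against 3 no single region could pass 0.05. With lists of equal length neither region had a peak in all 3 ethanol libraries, and the count was 0. Counting any imbalance, 21 regions had more ethanol than saline libraries with a peak, 10 had fewer and 13 had as many. That is 47.7%, 22.7% and 29.5%, against 51.8%, 14.7% and 33.5% of all regions. Regions held by a single library made up 34.1% of the 44 and 34.7% of all, and those held by all 6 made up 13.6% and 21.0%.

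For the 6 regions with a peak in every library the height of the peak could be compared. Summit pileup was put on a log2 scale and centred in each library on its median over the 10276 regions held by all 6 libraries, and ethanol was compared with saline by limma. Of the 10276 regions 0% passed an adjusted p of 0.05 (limma with Benjamini-Hochberg adjustment), while 531 had an unadjusted p under 0.05. None of the 6 receptor gene regions was among either. The Grin2c region in Tmem104 averaged 1.40 ± 0.409 with ethanol and 1.74 ± 0.158 with saline on the centred log2 scale (SD, n = 3 each), a difference of -0.34 with a standard error of 0.187 (limma adjusted p = 0.895). The Grin3b region at 6.5 kb averaged 0.620 ± 0.239 in ethanol and 0.918 ± 0.196 in saline libraries, a difference of -0.30 with a standard error of 0.187 (limma adjusted p = 0.910). The Grin2a, Grin3a and both Gria4 regions differed by -0.14, -0.02, -0.01 and 0.05. At Grin3a the lack of overlap seen in the raw pileups was gone after centring, with 0.814, 0.609 and 0.866 in ethanol libraries and 0.707, 0.708 and 0.930 in saline libraries.

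**Figure D4:**
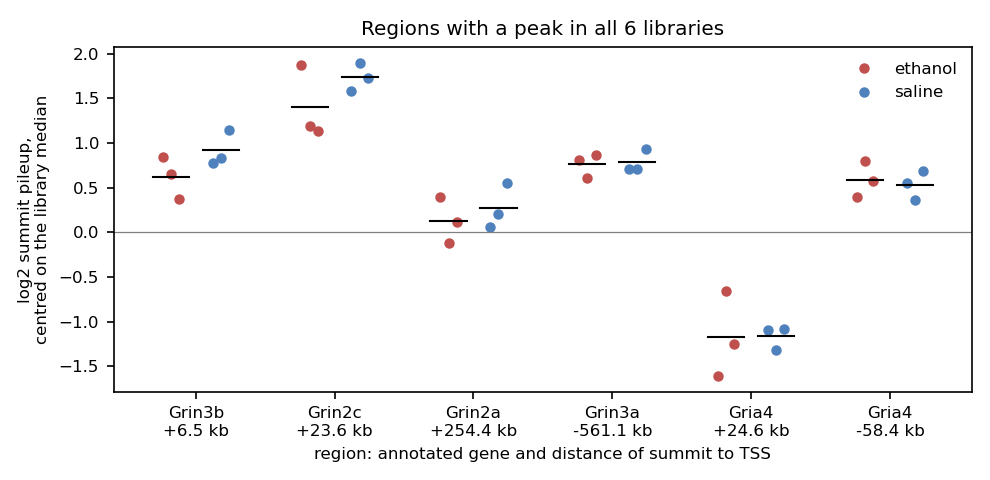
Summit pileup on a log2 scale, centred on each library's median over regions shared by all 6 libraries, for the 6 receptor gene regions with a peak in every library; bars are treatment means. Ethanol and saline points overlap in each region, and the Grin2c region is highest at 1.40 in ethanol and 1.74 in saline libraries.

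Of these regions 11 of 44 (25%) held under 1 CpG per 100 bp, against 21.4% of all regions. Of those 11, 9 held a run of ca repeats (CACACACACA or its complement TGTGTGTGTG, both strands searched, without overlap between the motifs), and among all regions under 1 CpG per 100 bp 64.6% did. Of the other 33 regions 7 held the run, and of all regions of 1 CpG per 100 bp or more 17.0% did. The 11 included the only Grin1 region, the only Gria1 region inside the gene, the Grin2b intron region at 230.8 kb and the Grin3a region found in ethanol libraries alone. Peaks in such regions made up 21.7%, 25.9% and 12.5% of the receptor gene peaks of ethanol libraries, against 12.5%, 22.7% and 23.5% in saline libraries (exact permutation p = 1). In the whole lists they made up 17.4% ± 2.74 of ethanol peaks and 17.6% ± 3.62 of saline peaks (SD over 3 libraries each; exact permutation p = 0.9). The part of these repeats in pulling down DNA was not tested.

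**Figure D5:**
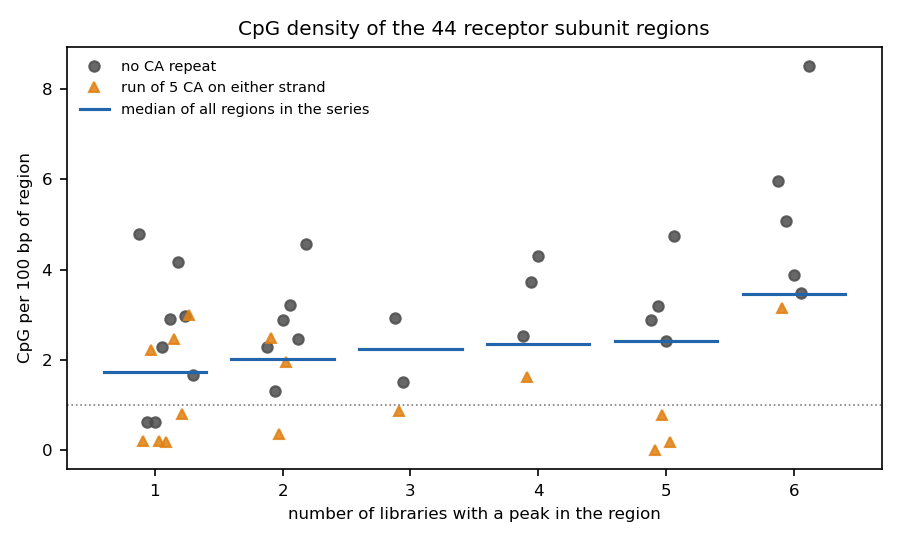
CpG per 100 bp of each of the 44 regions against the number of libraries with a peak in it, with triangles where the region holds the ca repeat and a bar for the median of all regions of the series held by as many libraries. Of the 16 triangles 9 lie under the dotted line at 1 CpG per 100 bp, and 3 regions with under 1 CpG per 100 bp were held by 5 libraries, while the 6 regions held by all libraries had 3.16 to 8.51.

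CpG density was highest in the regions held by all 6 libraries, as in the series as a whole. The median was 2.22 per 100 bp in the 15 regions held by 1 library and 4.47 in the 6 held by all, against 1.73 and 3.46 over all regions of the same kinds. The median -log10 q was 13.8 in the 15 regions and 48.1 in the 6.

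Genes of proteins that work with these receptors were looked at as a list of 36, made of auxiliary subunits, scaffolds, trafficking proteins, the kinase subunits Camk2a and Camk2b and enzymes that make or break down the co-agonist D-serine. In at least 1 library 26 of the 36 had a peak, in 150 regions. The numbers with a peak were 22, 24 and 23 in ethanol libraries and 21, 22 and 23 in saline libraries (exact permutation p = 0.5). Out of every gene that had a peak in the same library they made up a lower percentage in ethanol libraries, at 0.231%, 0.210% and 0.220%, against 0.247%, 0.239% and 0.255% in saline libraries, without overlap (exact permutation p = 0.1). The percentage divides by all genes with a peak, 9510, 11411 and 10456 in ethanol libraries and 8501, 9197 and 9025 in saline libraries. The list is fixed at 36 genes, so the lower percentage is not a lower count of list genes. The most regions were at Grip1, which encodes an AMPA receptor anchoring protein, with 20, Shisa9, an auxiliary subunit, with 17, Shank2 with 12 and Dlg2 with 11, both scaffolds of the postsynaptic density, and Gsg1l, another auxiliary subunit, with 10. Grip1 had 15, 15 and 13 peaks in ethanol libraries and 7, 10 and 9 in saline libraries, without overlap. Dlg4, which encodes PSD-95, the main scaffold of the postsynaptic density, Shank1 and Camk2a were among the 10 with no peak.

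Of the 150 regions of the list, 1 was called in every ethanol library and no saline one, and 1 the other way round, which is 0.667% each, against 1.49% and 0.108% of all regions. The first lay 6.5 kb upstream of Cacng4, an AMPA receptor auxiliary subunit gene (chromosome 11, 107800661 to 107801270; fold 5.94 to 7.44, -log10 q 15.4 to 21.9). The second lay 17.4 kb upstream of Dlgap4, a scaffold gene (chromosome 2, 156703280 to 156704575; fold 4.80 to 7.00, -log10 q 12.2 to 24.1). Besides Grip1, Cacng4 was the only gene of the list with counts that did not overlap, at 2, 3 and 2 peaks in ethanol libraries and 0, 1 and 0 in saline libraries. These are 2 of the 26 list genes with a peak (7.69%), close to the 5.12% of all genes and the 8.75% of genes with 8 or more peaks.

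The genes whose peaks were spread over the 6 libraries most like the summed peaks of the receptor genes were Gm13298, Pcdh20, Zscan4b, Prep and Gm10324. Likeness was the sum over the 6 libraries of absolute differences in the share of a gene's peaks, among 4702 other genes with at least 10 peaks in all. It ranged from 0.0295 for Gm13298 to 0.0400 for Gm10324. These genes are the closest by selection, and Zscan4b had only 23 peaks in all. Whether the likeness goes beyond the differing lengths of the lists was not tested. Pcdh20, a protocadherin gene, had 17, 21 and 19 peaks in ethanol libraries and 13, 18 and 14 in saline libraries.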

How the data were processed

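Per the labels and the series' design text, reads were aligned to mm10 with Bowtie (Bowtie2 2.1.0 per the submitters' processing notes) and MACS version 2 (written there as MASC) called the peaks of each library, at a stated q of 1e-4; the smallest -log10 q in the lists was 5.0 to 5.23, so they hold no peak near that threshold. Per the file headers, the deposited lists give each peak's summit pileup (a coverage signal), its fold enrichment (a ratio to local background) and its q, which the values show to be -log10 q. No source used here says if the caller was given a control. The lists hold no library totals, so depth is known only through list length and a background pileup of 1.85 to 2.65, read from pileup and fold as the most frequent value per list. It was 2.16, 2.33 and 2.34 in ethanol libraries 1, 2 and 3, and 1.85, 2.65 and 2.02 in saline libraries 1, 2 and 3. These values overlapped between the treatments and did not rank the libraries as list length did. Only 2.47% to 4.92% of the peaks of a list held its most frequent value. Positions count from 1.

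Peaks sharing at least 1 bp were merged to regions. Sequence came from RefSeq GRCm38 and features from GENCODE M21. Exact permutation tests covered all 20 assignments of libraries. Their p-values rank the observed difference among these assignments. They take no account of litter, since the labels do not say which pups shared one. Pileup was tested with limma 3.58.1 in R 4.3.3. On simulated data of 10276 regions it recovered 98% of 200 changes of 2 times. Every simulated region had the same spread on top of counting noise, unlike the real regions, so this percentage may not hold for these data. The genes and gene lists were chosen with earlier results of these data known. All 10 genes are named, with every region that was group-specific, promoter class or held by all 6 libraries, and of the list of 36 the 5 with most regions and any group-specific. Other regions, and Dlg4, Shank1, Camk2a and Camk2b, were named after their values were seen. Alternatives were a -log10 q of 10, equal list lengths, other scalings, a replicate block and leaving out libraries.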

Additional observations from a re-analysis of the deposited data

How the results depend on the processing

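With lists of equal length, the 18922 most significant peaks of each library, the difference in receptor gene peaks was -1 (18, 13 and 14 in ethanol libraries, 16, 15 and 17 in saline libraries), that in list genes with a peak was -1, that of Gria4 -0.333, of Grin2a -0.333 and of Grin2b -0.667; genes without overlap and ethanol-specific regions (called in all 3 ethanol libraries and none of the saline ones) both numbered 0. Limited to peaks in the gene body or within 100 kb, a setting chosen after seeing the data, genes without overlap numbered 0, ethanol-specific regions numbered 1 and the Gria4 difference was -0.333. Without regions under 1 CpG per 100 bp, also chosen after seeing the data, ethanol-specific regions numbered 1.

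Leaving out each library in turn, the difference in peaks ranged from 5.17 to 8.17, that in the share per 10000 peaks from -0.681 to 0.421 (positive without ethanol library 2, ethanol library 3 or saline library 2), genes with a peak from -0.333 to 0.333, genes without overlap from 1 to 2 (2 without ethanol library 2, saline library 1 or saline library 2), ethanol-specific regions from 2 to 4 (4 without ethanol library 2) and saline-specific regions from 0 to 1 (1 without saline library 3). With a library left out, the rules for genes without overlap and for group-specific regions covered the remaining libraries alone and were easier to meet. Single differences of Grin3a peaks ranged from 2.33 to 3.33.

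Scaling pileup by the background pileup moved the median difference over all regions by 0.146 on the log2 scale, to 0.130, and gave 0.00101 for Grin2a, 0.13 for Grin3a and 0.14 for the Gria4 intron region; quantile normalization gave 0.0777 for the last. Leaving out a library, the pileup difference ranged from -0.0701 to 0.0584 at Grin3a, from -0.27 to 0.21 in the Gria4 intron and from -0.0525 to 0.153 upstream of Gria4. It stayed negative at Grin2c (-0.575 to -0.207), Grin3b (-0.41 to -0.172) and Grin2a (-0.276 to -0.00203). No receptor gene region passed in any of these fits. Without ethanol library 1 the fit called 24 of all regions, and without saline library 1 it called 1. In the fit without ethanol library 1, 1 of the 6 receptor gene regions had an unadjusted limma p under 0.05, as did 10.3% of all regions tested.

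Pairing by replicate number was checked on summit pileup. The same-numbered deviations correlated at -0.17, -0.03 and -0.01, and the differently numbered ones at -0.13 to 0.14. These values cannot decide whether libraries were paired by litter or batch. The longest list of each treatment was that of library 2, with 34904 peaks for ethanol and 22703 for saline. With the replicate block the difference in receptor gene peaks was 6.33 (exact sign-flip p 0.25), and limma called 4 of all regions and 0 of the 6. The cause of these changes was not tested. Depth limits every absence here, since a sequence below the threshold has no value.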
